A study of Mus musculus with 43 samples.

Results

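The SCFA-treated, laser-lesioned mouse retina was compared between 7 and 3 days post-laser (dpl) in 9 of the 43 RNA sequencing libraries, and the same days were compared as a check in 7 further libraries. By the labelled protocol all mice were C57BL/6J, were 9 weeks old at the lesion, and carried a laser-induced choroidal neovascularization (CNV) lesion, so that no unlesioned retina entered the comparison. The genotype field of the labels instead gives Bl and a number that differs in every sample, and the treatment field reads control for all 43 samples, so that treatment was taken from the sample titles. Short-chain fatty acids (SCFA) were given in the drinking water as 67.5 mM acetate, 40 mM propionate and 25 mM butyrate, from 3 weeks before the lesion until collection, and the lesioned mice without SCFA were the controls. The g/L amounts stated beside these doses place butyrate above propionate, which the mM values do not, so the doses of both remain uncertain. The 9 libraries are the SCFA columns among the first 31 columns of the deposited table: 3 male and 3 female libraries at 7 dpl, and 1 male and 2 female libraries at 3 dpl. The 7 libraries of the check are among the last 12 columns: 2 male and 1 female libraries at 7 dpl, and 2 male and 2 female libraries at 3 dpl. These blocks of columns are called the first and the second run here, and what separates them is not given in the sources used here. Each library was a pool of 2 retinas from 2 mice, so that p-values measure the spread between pools, and the time of day of collection is not given in the sources used here.

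A laser burn through Bruch's membrane opens a path for choroidal vessels to grow into the subretinal space, and it is followed by activation of microglia and Müller glia and, later, by a fibrovascular scar. Acetate, propionate and butyrate are made by gut bacteria from dietary fibre, signal through G protein-coupled receptors, and in the case of butyrate inhibit histone deacetylases. Among the genes that answer fastest to injury, light, hormones or time of day are the immediate early genes, such as the Nr4a nuclear receptors, Fos and Egr factors, and the genes of the circadian clock, which run in photoreceptors and inner retinal neurons.

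The 16 libraries held between 15138510 and 21111372 counts, and 3 counts, taken as the floor, corresponded to between 0.142 and 0.198 CPM, the count scaled to library size, a limit that covers counting error only. Gnat1, the transducin subunit of rods, was present at 11614 to 23749 CPM, as a retina should show, and markers of blood leukocytes were near 0, with S100a8 at 0 to 1.48 CPM. Female replicate 2 at 3 dpl stood apart and was left out by the rule of the comparison: its lens genes summed to 357507 CPM, against 16.5 to 860 CPM in the 16 libraries used. Reads from the mitochondrial chromosome were 7.42% to 16.6% of the counts in the first run and 4.01% to 4.87% in the second. Since these are bulk retinas, fewer cells of a type and less RNA per cell cannot be told apart in any value below.

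With the sexes pooled and sex as a covariate, no gene changed between 3 and 7 dpl at the threshold used for the first run. Of 16633 genes tested by edgeR's quasi-likelihood test, 0 (0%) had an adjusted p under 0.1, while 580 (3.49%) had an unadjusted p under 0.05, 358 of them with higher and 222 with lower values at 7 dpl. DESeq2 called 43 genes, 31 of them higher. With female replicate 2 at 3 dpl included, edgeR again called 0 genes, and 1077 had an unadjusted p under 0.05. The count depended on the libraries used, with 14 genes called without female replicate 1 at 7 dpl and 4 without male replicate 3 at 7 dpl. Without male replicate 1 at 3 dpl 180 genes were called. It is the only male library of that day, so the females alone then gave the day change. In the females alone, 388 genes were called, 274 of them higher at 7 dpl.

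The genes with the smallest p among those higher at 7 dpl in every library include genes of transport, coagulation and hormone binding, and none of them was called. F5, coagulation factor V, on chromosome 1 (164151838 to 164220277, plus strand, GRCm38), stood at 3.67 CPM in the male and 1.77 and 1.33 CPM in the female libraries at 3 dpl, and between 4.11 and 19.3 CPM at 7 dpl. The days did not overlap, and the log2 difference was 2.32 ± 0.33 (SE, n = 6 and 3, edgeR adjusted p = 0.102). Crhbp, which binds corticotropin-releasing hormone, had 15.2, 6.64 and 12.4 CPM at 3 dpl and 19.5 to 64.9 CPM at 7 dpl, a log2 difference of 1.77 ± 0.26 (edgeR adjusted p = 0.102). For both genes the male library was the highest of the 3 at 3 dpl, and female replicate 1 the lowest of the 6 at 7 dpl.

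The other genes of this kind had adjusted p between 0.220 and 0.769. They were Dio3, which inactivates thyroid hormone, with a log2 difference of 1.88, the monocarboxylate carrier family member Slc16a12 with 2.0, the sulfate carrier Slc13a4 with 1.98 and the protease Adamts9 with 1.97. Col18a1, whose product yields endostatin, had a log2 difference of 1.06, Ltbp1, which binds latent TGF-beta, 1.0, and the transcription factor Tbx22, at 0 to 1.20 CPM in these libraries, 3.46. One library stood out for Slc16a12, where male replicate 3 at 7 dpl held 12.3 CPM and the other libraries of that day 3.02 to 6.17 CPM. Non-overlapping days with higher values at 7 dpl were found for 163 of all 16633 genes (0.980%), and with lower values for 221 (1.33%).

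The genes lower at 7 dpl with the smallest p were mostly genes of skeletal muscle, cornea and surface epithelium rather than of the retina. Tnnt3, fast skeletal troponin T, stood at 1.12 CPM in the male and 21 and 2.15 CPM in the female libraries at 3 dpl and at 0 to 0.26 CPM at 7 dpl, with a log2 difference of -5.18 ± 0.88 (edgeR adjusted p = 0.195). Upk3b, a uroplakin of mesothelium, had 0.79, 1.25 and 2.97 CPM at 3 dpl and 0.10 to 0.33 CPM at 7 dpl, a log2 difference of -2.49 (edgeR adjusted p = 0.231). Krt12, the corneal keratin, had 0.98, 0.72 and 1.20 CPM at 3 dpl and 0.06 to 0.29 CPM at 7 dpl, a log2 difference of -2.43 (edgeR adjusted p = 0.339). Fold changes of genes this close to the floor depend on the prior count of the fit. Tnnt3, Upk3b and Krt12 entered the test through the libraries at 3 dpl alone, so their lower direction followed from the filter on counts. The rest were the muscle genes Tnni2 (log2 -4.03), Atp2a1 (-3.14), Myl1 (-2.72), Acta1 (-2.0), Tcap (-1.70) and Pgam2 (-1.09), and Pi16 (-2.06), a gene of fibroblasts. None was called.

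Markers of tissue next to the retina moved with the days in the same direction. The list of cornea, conjunctiva and muscle markers summed to 13.6 to 112 CPM at 3 dpl and 8.66 to 12.3 CPM at 7 dpl, and 5 of its 8 tested members had lower values at 7 dpl at an unadjusted p under 0.05, with a median log2 difference of -1.78. Over all genes tested, 1.33% had lower values at that p, but Tnnt3 and Krt12 passed the count filter through the libraries at 3 dpl alone. The lower direction of such genes was set by the filter, so this count is a description. Neither gene was tested in the second run. Genes of the pigment epithelium, which lies against the photoreceptors and recycles their retinoids, summed to 379 to 1097 CPM at 3 dpl and 317 to 495 CPM at 7 dpl, and 6 of 15 had an unadjusted p under 0.05, all lower, with a median of -0.78. Over all tested genes the median was 0.00. Lrat, the retinol acyltransferase, had 14.4, 26.6 and 30.7 CPM at 3 dpl and 5.72 to 13.4 CPM at 7 dpl. Its log2 difference was -1.11 (edgeR unadjusted p = 0.0025), and that of Ttr, the thyroxine and retinol carrier, -0.96 (edgeR unadjusted p = 0.0033). The part of the amount of adjoining tissue in these values was not tested.

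Glial and immune lists held few genes at an unadjusted p under 0.05 in the first run, as had 3.49% of all genes. Of 24 gliosis genes 1 had an unadjusted p under 0.05, and the numbers were 0 of 16 complement genes, 0 of 14 homeostatic microglia genes, 1 of 18 genes of disease-associated microglia and 0 of 24 interferon response genes. The medians of these lists lay between -0.23 and -0.04. Among 27 matrix genes, Dcn, the proteoglycan decorin, had a log2 difference of -1.71 (edgeR unadjusted p = 0.0041) and was not called. None of the 18 tested SCFA receptor, transporter and utilisation genes was called, and 1 had an unadjusted p under 0.05.

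**Figure D1:**
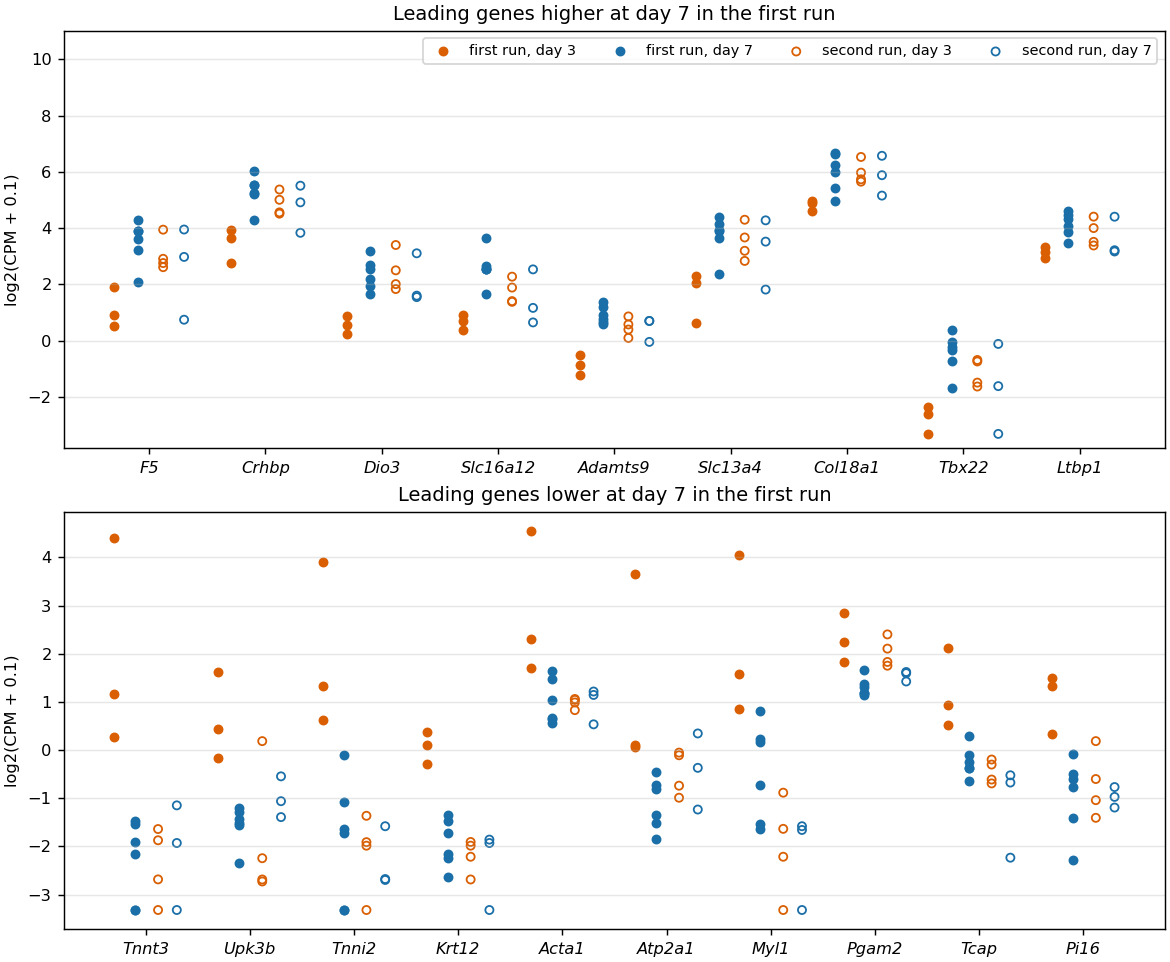
Levels of the genes with the smallest p in the pooled comparison of the first run, as log2(CPM + 0.1), with 1 point for each library at 3 and 7 dpl, filled for the first run and open for the second. In the first run the days are apart for F5 and Crhbp, while in the second run they overlap.

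The second run did not show the same differences, but the pooled values of the 2 runs weigh the sexes differently. At 3 dpl the first run holds 1 male and 2 female libraries, and at 7 dpl the second holds 2 male and 1 female. The day change differed between the sexes for many genes, as given below, so the 2 pooled values are not like for like. The part of this in the differences between the runs was not tested. Of 16403 genes tested, 0 (0%) were called by edgeR and 0 by DESeq2, and 467 (2.85%) had an unadjusted edgeR p under 0.05, 186 with higher and 281 with lower values at 7 dpl. Without female replicate 4, the only female library at 7 dpl in that run, 518 genes were called, and the males alone then gave the day change. Of the leading genes with higher values at 7 dpl, 9 were tested in the second run, and 2 of 9 had the same direction there, with log2 differences of all 9 between -0.15 and 0.03. Crhbp stood at 22.7 and 32.0 CPM in the male and 23.4 and 41.3 CPM in the female libraries at 3 dpl, and at 30.1, 14.1 and 45.3 CPM at 7 dpl (log2 difference 0.03 ± 0.28, edgeR unadjusted p = 0.919). The days overlapped, with 1 male library lowest and the female library highest at 7 dpl. Pgam2, a phosphoglycerate mutase of muscle that lens also expresses, was the one leading gene whose days were apart in both runs, with 4.64, 7.10, 3.48, 3.46, 5.19, 3.27 and 4.21 CPM in the 7 libraries at 3 dpl and 2.10 to 3.09 CPM in the 9 at 7 dpl, and it held 93.5 CPM in the library left out. Days apart in both runs were found for 6 genes with lower values at 7 dpl (0.0374%), Asprv1, an epidermal protease, among them, and for 6 with higher values (0.0374%). Across 16044 genes tested in both runs, 48.4% had the same sign of the day difference, and Pearson's r between the runs was -0.029, a description over genes, which are not independent.

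**Figure D2:**
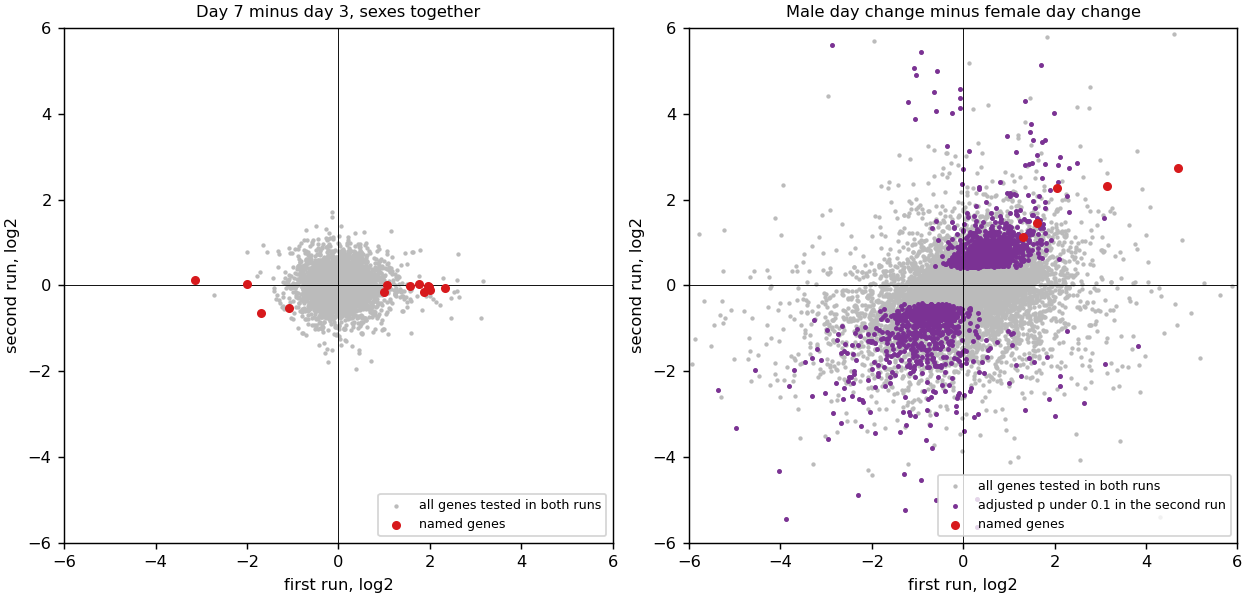
Log2 values in the first run (horizontal) and in the second run (vertical), 1 point for each gene tested in both and genes beyond the axes not drawn, for the difference between 7 and 3 dpl with the sexes together (left) and for the male minus the female difference (right). On the left the cloud has no slope (r = -0.029 across 16044 genes), and on the right it rises, with the genes called in the second run coloured (r = 0.351 across 17226 genes).

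In the second run some glial and innate immune genes were among the 281 genes with lower values at 7 dpl at an unadjusted p under 0.05, with none called. Of 24 gliosis genes 8 had an unadjusted p under 0.05, all lower at 7 dpl, with a median log2 difference of -0.32 against 0.00 over all genes tested, of which 1.71% were lower at that p. The examples were Serpina3n, an acute phase serpin of reactive glia, at -1.57 (edgeR unadjusted p = 0.001), Gfap, the intermediate filament of reactive Müller glia and astrocytes, at -0.79, Stat3, the transcription factor that drives it, at -0.31, and the cytokine Lif at -1.10. In the first run these genes had differences of 0.44, -0.13, -0.04 and -0.81. Of 16 complement genes 3 were lower at that p, with C4b at -0.90, C3 at -0.76 and C1qc at -0.43, and of 19 genes of disease-associated microglia 4, with Gpnmb at -0.97, Lyz2 at -0.86, Cd68 at -0.78 and Spp1 at -0.70. Spp1, osteopontin, was the one of these 4 that also had an unadjusted p under 0.05 in the first run (-0.66, edgeR unadjusted p = 0.0499). Col3a1, a collagen of scar tissue, had a difference of -1.94, and Bgn, the proteoglycan biglycan, of -0.89, against 0.39 and 0.50 in the first run.

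Whether the change between the days differed from that in lesioned retinas without SCFA was asked by an interaction over the first run, with 5 control libraries at each day. Of 17501 genes, 0 (0%) were called by edgeR and 0 by DESeq2, and 554 (3.17%) had an unadjusted edgeR p under 0.05. In the controls themselves, 0 of 16170 genes (0%) were called between the days by edgeR, and 904 (5.59%) had an unadjusted p under 0.05. The genes with the smallest p of the interaction were Car3, a carbonic anhydrase of muscle and fat, at a log2 value of -2.59 ± 0.58, Ttr at -1.65 ± 0.39, the basement membrane collagen Col8a2 at -1.64 ± 0.41, the serpin Serpine3 at -2.37 ± 0.59 and Pgam2 at -1.18 ± 0.30, each with an edgeR adjusted p of 1. Car3 had 4.04 CPM in the male and 36.7 and 13.9 CPM in the female SCFA libraries at 3 dpl, and 2.23 to 6.35 CPM at 7 dpl. Of the pigment epithelium list, 11 of 15 genes had a lower value in this contrast at an unadjusted p under 0.05 (1.52% of all genes), with a median of -1.37 against 0.02 over all genes, and of the cornea and muscle list 4 of 11. These are the lists whose sums in the 2 female SCFA libraries at 3 dpl were the highest of the SCFA libraries used.

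The change between the days differed between males and females for many genes. Over all 16 SCFA libraries, with the run as a covariate, the change between 3 and 7 dpl in males minus that in females was called for 2254 of 17306 genes (13%), 1052 with a higher value (6.08%) and 1202 with a lower value (6.95%), and for 641 (3.70%) it also exceeded 1 on the log2 scale. With female replicate 2 at 3 dpl included, 2394 genes were called. Of the 1052 genes, 1046 had a higher level at 7 dpl in males and a lower level at 7 dpl in females, and of the 1202, 1181 had the opposite pattern, while over all tested genes 6038 and 5676 had these patterns. Genes called for a difference between the sexes tend to have opposite signs by their selection, so these counts are a description. Within the females alone 894 genes changed (5.17%), 628 higher (3.63%) and 266 lower (1.54%) at 7 dpl, and within the males 3 (0.0173%), which were Cables1, Dio2 and Nr4a3. Added to the fit, female replicate 2 at 3 dpl raised the count of the females to 2415 and left that of the males at 3.

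Immediate early genes are known for response elements in their promoters, and 4 promoter windows are printed to show such elements, chosen after the motifs in them were known. Each window runs from 250 bases before to 50 bases after the start of transcription on GRCm38.p6, written 5′ to 3′ on the strand of the gene. Capitals mark the cAMP response element (CRE, TGACGTCA), its core TGACG, which overlaps the CRE, and the E-box CACGTG to which the clock factors bind, all searched on both strands. Nr4a3 and Dio2 are among the 3 genes called in males, Per1 is the light-responsive clock gene, and Dusp1 is the immediate early phosphatase.
Nr4a3, chr4:48045055-48045354, plus strand: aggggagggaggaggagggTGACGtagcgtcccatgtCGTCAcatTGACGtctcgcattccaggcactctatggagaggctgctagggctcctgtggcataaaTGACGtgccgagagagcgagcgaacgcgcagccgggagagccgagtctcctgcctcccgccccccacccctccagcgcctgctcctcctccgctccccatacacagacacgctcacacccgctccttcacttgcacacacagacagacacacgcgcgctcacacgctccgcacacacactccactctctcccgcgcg
Dio2, chr12:90738989-90739288, minus strand: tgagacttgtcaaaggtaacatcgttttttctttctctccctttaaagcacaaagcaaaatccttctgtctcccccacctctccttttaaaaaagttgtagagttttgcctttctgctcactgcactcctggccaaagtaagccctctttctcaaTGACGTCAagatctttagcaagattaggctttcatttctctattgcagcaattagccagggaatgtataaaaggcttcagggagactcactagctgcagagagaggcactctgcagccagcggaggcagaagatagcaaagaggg
Per1, chr11:69098699-69098998, plus strand: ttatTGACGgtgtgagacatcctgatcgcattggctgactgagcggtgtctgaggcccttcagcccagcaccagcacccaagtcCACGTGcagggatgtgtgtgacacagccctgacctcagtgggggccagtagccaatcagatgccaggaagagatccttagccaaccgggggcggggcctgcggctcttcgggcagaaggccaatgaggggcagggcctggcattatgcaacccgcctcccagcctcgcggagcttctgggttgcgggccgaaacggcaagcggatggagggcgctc
Dusp1, chr17:26508423-26508722, minus strand: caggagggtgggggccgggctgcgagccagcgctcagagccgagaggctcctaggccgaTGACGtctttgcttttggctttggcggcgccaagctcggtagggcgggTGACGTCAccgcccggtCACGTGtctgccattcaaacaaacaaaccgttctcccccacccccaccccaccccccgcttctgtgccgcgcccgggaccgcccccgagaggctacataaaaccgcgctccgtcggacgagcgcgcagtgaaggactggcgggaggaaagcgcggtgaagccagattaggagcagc

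The window of Nr4a3 held 4 cores and no CRE, that of Dio2 and that of Dusp1 1 CRE each, and those of Per1 and Dusp1 1 E-box each. Those of Fosl2 and Cdkn1a and that of the leading gene Rhou held none of these, that of Klf4 held 1 core and 1 E-box, and another window of Per1 held 1 core and no E-box. Among all windows of the same length, 1.79% held a CRE, 20.8% a core and 7.15% an E-box. Among genes tested the shares were 2.82%, 28.7% and 9.25%, among those called higher 2.14%, 26.8% and 8.16%, and among those called lower 2.64%, 29.4% and 10.3%. The genes called higher thus had smaller shares than the genes tested for each of these letters. The AP-1 letters TGANTCA were in 5.15% of the windows of genes called higher and in 4.06% of those called lower, against 5.22% of those tested.

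Cables1, an adaptor of cyclin-dependent kinases on chromosome 18 (11839220 to 11945630, plus strand), had the smallest p. It stood at 5.67, 3.56 and 4.80 CPM in the males at 3 dpl and at 14.6, 13.1, 17.1, 10.5 and 11.5 CPM at 7 dpl, whereas the females had 13.9, 12.6, 9.48 and 10.4 CPM at 3 dpl and 8.74, 7.01, 8.98 and 5.27 CPM at 7 dpl. In both sexes the days did not overlap, and their order was opposite. The interaction was 2.11 ± 0.21 on the log2 scale (edgeR adjusted p = 0.000119), from 1.39 in males and -0.73 in females, and it was 2.06 in the first run and 2.28 in the second.

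Nr4a3, an orphan nuclear receptor and immediate early gene on chromosome 4 (48045153 to 48086447, plus strand), stood at 0.56, 1.12 and 0.72 CPM in the males at 3 dpl and at 4.20, 5.14, 4.10, 2.98 and 4.98 CPM at 7 dpl. The females had 3.55, 2.34, 2.27 and 1.84 CPM at 3 dpl and 1.04, 0.56, 1.02 and 1.29 CPM at 7 dpl, again with the days apart and in the opposite order. Its interaction was 3.73 ± 0.45 (edgeR adjusted p = 0.000948), with 4.71 in the first run and 2.75 in the second. Dio2, the deiodinase that activates thyroid hormone, had 14.7, 16.6 and 15.2 CPM in the males at 3 dpl and 85.3, 56.2, 114, 34.0 and 64.5 CPM at 7 dpl. The females had 42.3, 57.8, 32.0 and 34.9 CPM at 3 dpl and 30.9, 36.2, 28.8 and 20.3 CPM at 7 dpl, so that only the male days did not overlap. The interaction of Dio2 was 2.61 ± 0.32 (edgeR adjusted p = 0.000948), and the female change, -0.63, was not called (edgeR adjusted p = 0.133).

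Rhou, a small GTPase of the cytoskeleton, had 17.7, 12.9 and 14.1 CPM in the males at 3 dpl and 30.4, 20.9, 29.9, 23.3 and 21.5 CPM at 7 dpl, and its interaction was 1.63 ± 0.21 (edgeR adjusted p = 0.00127). In the females it stood at 26.8, 21.6, 18.2 and 22.4 CPM at 3 dpl and at 12.8, 9.79, 12.8 and 12 CPM at 7 dpl. The days were apart in both sexes. Bhlhe40, a repressor of the circadian clock that also responds to light and hypoxia, had 31.4, 39.1 and 34.3 CPM in the males at 3 dpl and 54.0, 43.8, 51.2, 55.8 and 60.5 CPM at 7 dpl. It fell in the females from 63.2, 61.3, 47.8 and 56.9 CPM to 39.0, 41.1, 36.4 and 36.9 CPM (interaction 1.15 ± 0.16, edgeR adjusted p = 0.00271). For Cables1, Nr4a3, Rhou and Bhlhe40 all male libraries at 7 dpl and all female libraries at 3 dpl lay above all others, a pattern of 33 of the 17306 genes (0.191%), and 43 (0.248%) had the reverse pattern.

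The library left out as lens-bearing lay with the other female libraries of its day for these genes. Female replicate 2 at 3 dpl had 11.7 CPM of Cables1, 4.66 CPM of Nr4a3, 37.0 CPM of Dio2, 21.9 CPM of Rhou and 64.5 CPM of Bhlhe40. Of these, Nr4a3 and Bhlhe40 were a little above the range of the other 4.

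**Figure D3:**
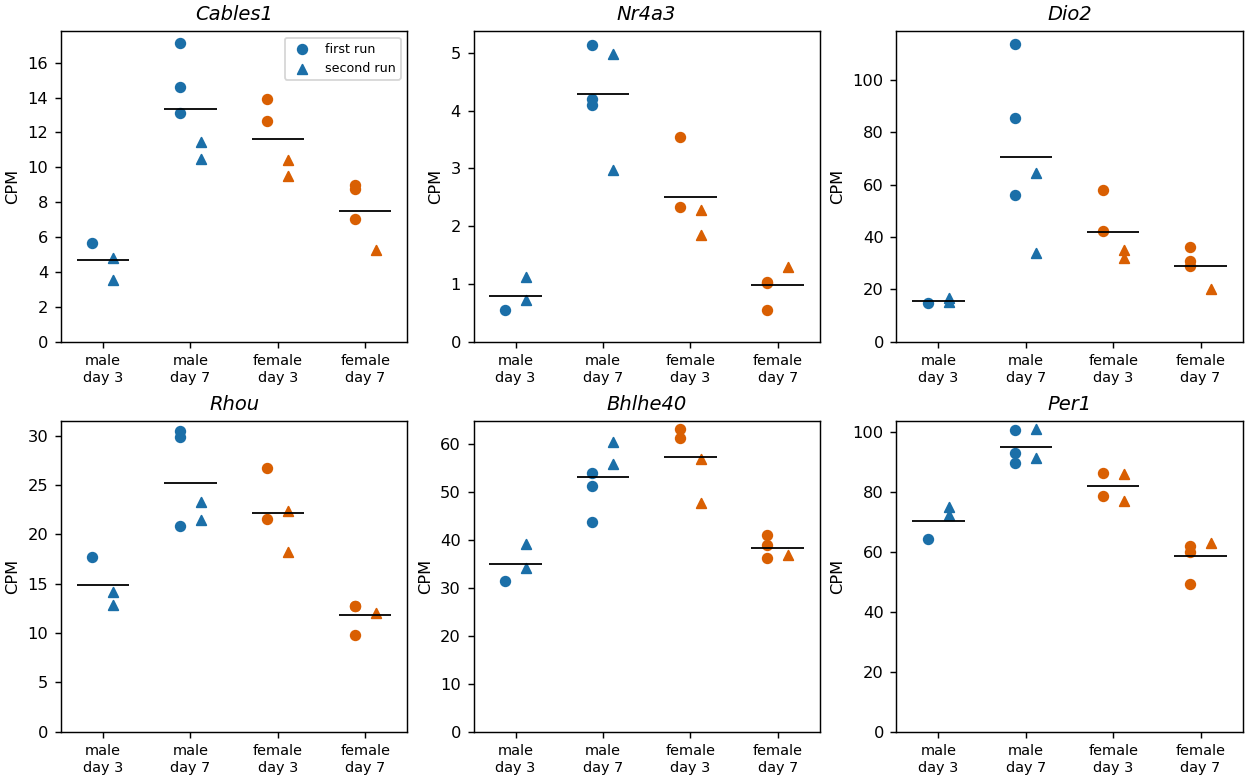
Levels in CPM of the leading genes of the day by sex interaction in each SCFA library, by sex and day, with circles for the first run, triangles for the second and a line at the mean of each group. Male libraries at 7 dpl and female libraries at 3 dpl lie high for Cables1, Nr4a3, Rhou and Bhlhe40, while male libraries at 3 dpl and female libraries at 7 dpl lie low.

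The interaction had the same direction in both runs, which share no library, for most of the genes called in either. Of 1832 genes called in the second run alone (10.3% of 17704), 1817 were tested in the first run, and 1654 (91.0%) had the same direction there, against 11879 of the 17226 genes tested in both (69.0%). In the first run alone 12 of 18272 genes were called (0.0657%), and 11 of 11 that were tested in the second run had the same direction there. Pearson's r of the interaction between the runs was 0.351 across 17226 genes, as a description. The first run holds 1 male library at 3 dpl and the second 1 female library at 7 dpl, so that each run rests on a single library for one of the 4 groups.

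**Figure D4:**
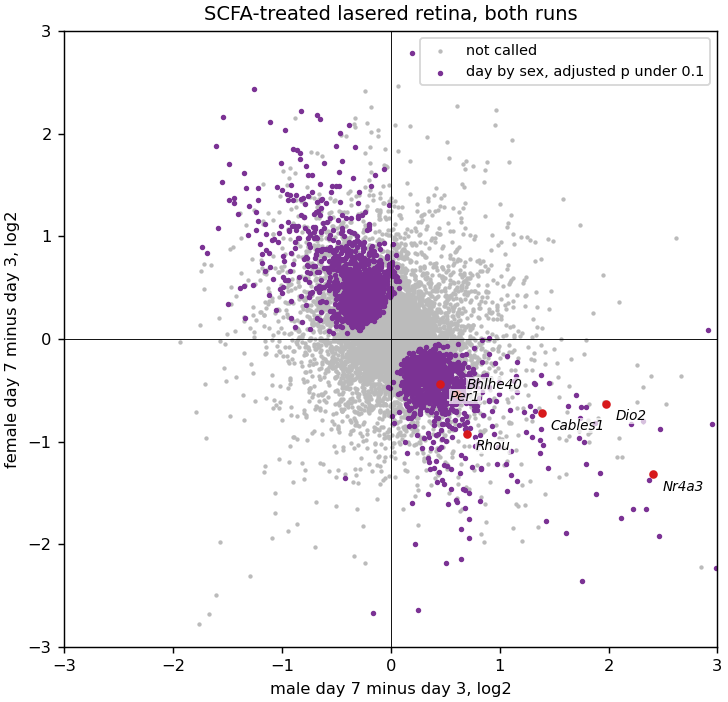
Log2 difference between 7 and 3 dpl in males (horizontal) and in females (vertical) over both runs, 1 point for each gene, with genes called in the interaction coloured and genes beyond the axes not drawn. Of the 1052 genes called higher, 1046 lie in the quadrant with higher values in males and lower values in females.

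The immediate early genes of the list had higher values than most genes. Of 24 tested, 11 were called higher and 0 lower, against 6.08% and 6.95% of all genes, with a median interaction of 0.55 against 0.01 over all genes. The list members Fos, Fosb, Jun, Junb, Egr1, Egr2 and Nr4a1 were not among the 11. Fosl2, an AP-1 subunit, stood at 3.76, 4.32 and 4.64 CPM in the males at 3 dpl and 14.8, 9.11, 16.3, 6.52 and 12.3 CPM at 7 dpl, and in the females at 11.2, 12.7, 6.21 and 8.93 CPM at 3 dpl and 4.94, 4.79, 5.03 and 5.21 CPM at 7 dpl. The days were apart in both sexes, and the interaction was 2.35 ± 0.35 (edgeR adjusted p = 0.00506). The others included the Krüppel-like factors Klf2 (1.18) and Klf4 (1.67), the phosphatases Dusp1 (1.08) and Dusp6 (1.23) that end MAP kinase signals, and the zinc finger factors Egr3 (1.73) and Egr4 (2.05), while Egr3 and Egr4 stayed under 5 CPM in every library. In the second run alone 6 of 24 were called higher and 0 lower, against 5.54% and 4.81% of all genes.

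Circadian clock genes went both ways, with 5 of 19 called higher, 2 lower and a median of 0.20, while 6.08% of all genes were called higher and 6.95% lower. Per1, the light-induced clock repressor, stood at 64.1, 72.2 and 74.8 CPM in the males at 3 dpl and 93.1, 101, 89.6, 91.1 and 101 CPM at 7 dpl. Females had 86.4, 78.6, 77.0 and 86.1 CPM at 3 dpl and 61.9, 59.9, 49.4 and 62.8 CPM at 7 dpl, which again separated the days in the opposite order (interaction 0.90 ± 0.13, edgeR adjusted p = 0.00506). Besides Bhlhe40 and Per1, the repressor Cry2 (0.75), the output factor Hlf (0.87) and the nuclear receptor Nr1d1 (0.53) had higher values. Rorb, the retinoid-related receptor of rods and inner retinal neurons, had an interaction of -1.14 ± 0.19 (edgeR adjusted p = 0.00987) and Per3 of -0.66 ± 0.19 (edgeR adjusted p = 0.0493). In the second run alone 8 of 19 clock genes were called higher and 2 lower, against 5.54% and 4.81% of all genes.

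Targets of the glucocorticoid receptor and metallothioneins were called higher for 7 of 13 genes and lower for 0, with a median of 0.65. Of all genes, 6.08% were called higher and 6.95% lower. Cdkn1a, the p21 inhibitor of the cell cycle, had 5.53, 5.03 and 4.08 CPM in the males at 3 dpl and 6.70, 10, 8.73, 10.3 and 11.6 CPM at 7 dpl, an order that the females reversed with 10.3, 8.03, 9.31 and 12.4 CPM at 3 dpl and 6.50, 6.51, 5.51 and 7.61 CPM at 7 dpl (interaction 1.52 ± 0.25, edgeR adjusted p = 0.00849). Tsc22d3, the glucocorticoid-induced leucine zipper, had 0.75 ± 0.14 (edgeR adjusted p = 0.0136), and the arrestin Arrdc2 1.31. The metallothioneins Mt1 (0.61) and Mt3 (0.65), which bind zinc and copper, were also among the 7. Heat shock genes were called higher for 7 of 15, led by the small chaperone Cryab (1.22), the co-chaperone Bag3 (0.98) and Dnaja1 (0.86), while Hsf1, their transcription factor, was called lower (-0.52). Cryab is also a lens gene, and of the 17 tested genes of the lens list 0 were called by edgeR and 0 had an unadjusted p under 0.05. In the second run alone 14 of 19 lens genes were called higher, against 5.54% of all genes. The summed lens genes in that run stood at 860 and 665 CPM in the female libraries at 3 dpl and at 155 CPM at 7 dpl, and at 48.8 and 25.7 CPM in the male libraries at 3 dpl and 26.5 and 287 CPM at 7 dpl.

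Müller glia genes of retinal upkeep were called higher for 9 of 16 and lower for 0, against 6.08% and 6.95% of all genes, with a median of 0.61. Glul, glutamine synthetase, which clears glutamate, stood at 2398, 2586 and 2596 CPM in the males at 3 dpl and between 2869 and 5827 CPM at 7 dpl, with a median of 3383. In the females it stood at 5503, 4785, 2919 and 3874 CPM at 3 dpl and 4010, 2618, 2865 and 2171 CPM at 7 dpl, where the days overlapped (interaction 1.14 ± 0.28, edgeR adjusted p = 0.0314). Rdh10, a retinol dehydrogenase, had an interaction of 0.91. Gliosis genes were called higher for 6 of 24, among them S100a6 (1.26), a calcium-binding protein of reactive glia, and Anxa1 (1.19), the glucocorticoid-induced annexin, and 2 were called lower. The neuroprotective ligands Edn2 (-1.53) and Fgf2 (-0.65) were these. The values of the gliosis list were not alike in the runs, with a median of 0.94 in the first and of -0.08 in the second. In the second run 1 gliosis gene was called higher and 4 lower, against 5.54% and 4.81% of all genes.

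The immune lists held some genes called higher, as were 6.08% of all genes. Homeostatic microglia genes were called higher for 3 of 14, namely Siglech (1.35), Csf1r (0.86), the receptor on which microglia depend, and Olfml3 (0.78), with a median of 0.75. In the second run the male means at 3 and 7 dpl were 2.35 and 2.06 CPM for Siglech, 17.3 and 17.5 for Csf1r, and 11.13 and 11.15 for Olfml3. The list summed to 57.4 CPM in the male library at 3 dpl of the first run and to 84.3 and 79.3 CPM in those of the second. The males at 7 dpl had 64.7 to 89.4 CPM. The numbers were 2 of 19 genes of disease-associated microglia, 1 of 16 complement genes and 1 of 20 antigen presentation genes, all higher, and 0 of 26 interferon response genes by edgeR, of which 2 had an unadjusted p under 0.05. Within the females 2 of 14 homeostatic microglia genes were called lower at 7 dpl, against 1.54% of all genes, and the median change of the list was -0.64. Over all genes, the female change was called for 0 without female replicate 1 at 3 dpl and for 5 without replicate 3. Among antioxidant genes under NRF2, 4 of 18 were called higher, with the transferase Gsta4 at 0.96 and the quinone reductase Nqo1 at 1.01, and in the second run alone 0 of 18 by edgeR.

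Among SCFA receptor, transporter and utilisation genes 3 of 18 were called higher, against 6.08% of all genes. Slc16a8 (1.74), the lactate carrier of the pigment epithelium, Acss3 (1.73), a mitochondrial acyl-CoA synthetase that activates propionate, and Slc16a1 (0.44), the widespread carrier of lactate, ketone bodies and SCFA, were these. Slc16a8 moved with the pigment epithelium list, of which 8 of 15 genes were called higher and 0 lower, with a median of 1.52. Rpe65, the retinoid isomerase, stood at 25.8, 8.49 and 13 CPM in the males at 3 dpl and 26.9, 31.1, 30.7, 13.3 and 45.9 CPM at 7 dpl, and in the females at 59.9, 70.4, 11.5 and 27.2 CPM at 3 dpl and 16.5, 28.1, 31.3 and 4.97 CPM at 7 dpl (interaction 2.08 ± 0.59, edgeR adjusted p = 0.0477). The days overlapped in both sexes, and within each run the order of the means was opposite between them. Rgr (2.10), the opsin of the pigment epithelium and Müller glia, Ttr (1.95) and Lrat (2.13) were also called. Myelin genes, which the mouse retina lacks and the optic nerve holds, were called higher for 6 of 13, and Mobp, at 92.4 CPM in male replicate 2 at 7 dpl, was at 0 to 13.4 CPM in the other 15 libraries. Without that library 6 of 10 myelin genes were called higher (11.2% of all genes), with a median of 1.24 in place of 2.59.

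Matrix genes went both ways, with 4 of 27 called higher and 3 lower, against 6.08% and 6.95% of all genes. The proteoglycan gene Dcn (2.79), the collagen Col8a1 (1.34), the membrane protease Mmp14 (0.90) and Sparc (0.67) had higher values, and Col6a1 (-1.13), Col4a2 (-0.69) and Col4a1 (-0.64) lower ones. Col4a2, a basement membrane collagen, turned to 0.41 when female replicate 2 at 3 dpl was included. Ribosomal protein genes were called higher for 4 of 79, a share near that of all genes, and lower for 0. A value above 0 was found for 75, with a median of 0.34 against 0.01 over all genes.

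Some photoreceptor, bipolar cell and synapse genes were called lower, as were 6.95% of all genes. Of 23 rod genes 4 were called lower and 0 higher, with a median of -0.26: the phosducin gene Pdc (-0.80), the arrestin Sag (-0.60), the phosphodiesterase subunit Pde6b (-0.68) and the regulator Rgs9 (-0.95). In the second run alone 0 of 23 were called, with a median of 0.03. The rod list summed to 87871 and 71390 CPM in male replicates 1 and 3 at 7 dpl, and to 139365 CPM in male replicate 2. The other SCFA libraries used had 100785 to 130002 CPM. Male replicates 1 and 3 also had the highest shares of mitochondrial reads, at 15.3% and 16.6%. Of 17 bipolar cell genes 3 were called lower (Gpr179, Lrit3 and Grm6, of the signalling complex of ON bipolar cells), of 17 ribbon synapse genes 3 lower (Rims2, Cacna1f and Pclo) and 1 higher, and of 13 cone genes 1 lower, a share near that of all genes. The log2 difference of Pclo between 7 and 3 dpl lay above 0 in both sexes, at 0.04 in males and 0.57 in females. Of the 29 lists with a called gene, 4 held lower values only and 18 higher values only.

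The leading genes with lower values were Ttll11, a tubulin polyglutamylase, Slc25a37, the mitochondrial iron carrier mitoferrin-1, the zinc finger gene Mzf1, Glp2r, the receptor of glucagon-like peptide 2, and Kif15, a mitotic kinesin. Slc25a37 stood at 59.2, 51.4 and 63.9 CPM in the males at 3 dpl and 34.9, 44.4, 27.5, 39.5 and 29.8 CPM at 7 dpl, and in the females at 27.0, 22.9, 41.2 and 39.7 CPM at 3 dpl and 48.0, 68.8, 70.2 and 58.6 CPM at 7 dpl. The days were apart in both sexes, in the opposite order (interaction -1.67 ± 0.26, edgeR adjusted p = 0.00585). Glp2r had 165, 154 and 157 CPM in the males at 3 dpl and 73.2, 110, 50.9, 110 and 94.6 CPM at 7 dpl, against 60.9, 53.3, 100.1 and 96.9 CPM and then 91.3, 119, 115 and 156 CPM in the females, of which the days overlapped (interaction -1.56 ± 0.26, edgeR adjusted p = 0.00963). Ttll11 had an interaction of -1.42, Mzf1 of -1.58 and Kif15 of -2.71.

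**Figure D5:**
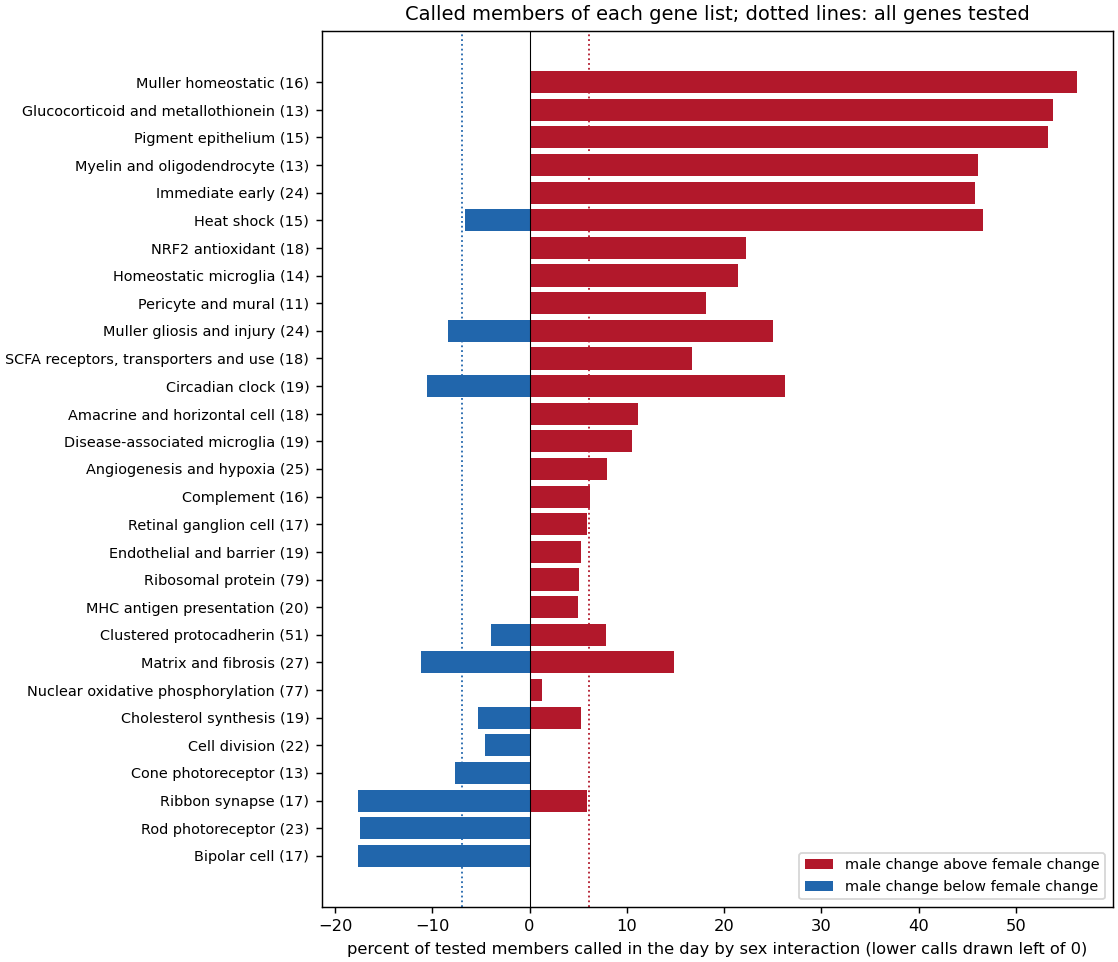
Percent of the tested genes of each list that were called in the day by sex interaction over all SCFA libraries, to the right of 0 where the male change lay above the female change and to the left where it lay below, with the number tested in brackets. Dotted lines mark the shares of all genes tested, 6.08% and 6.95%, and Müller glia, glucocorticoid, pigment epithelium, myelin, immediate early and heat shock genes reach farthest to the right.

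The size of the interaction depended on single libraries. Without male replicate 1 at 3 dpl 129 genes were called, and without male replicate 2 at 7 dpl 3835. Among the other libraries at 3 dpl the counts were 1118 without female replicate 3, 1141 without female replicate 1, 1371 without female replicate 5 and 1150 without male replicate 3. At 7 dpl they were 1296 without female replicate 2 and 1306 without male replicate 5. With male replicate 1 at 3 dpl left out, 62 of 17754 genes (0.349%) were called higher, and in the lists 2 of 24 immediate early genes, 1 of 16 Müller glia genes, 3 of 13 glucocorticoid targets, 1 of 15 heat shock genes and 1 of 15 pigment epithelium genes, with medians of 0.45, 0.46, 0.59, 0.47 and 1.41. The female change was called for 0 genes by edgeR without female replicate 1 at 3 dpl, where 2023 had an unadjusted p under 0.05, and for 5 without replicate 3. Without female replicate 2, 3 or 4 at 7 dpl it was called for 255, 464 and 158 genes, and without female replicate 4 or 5 at 3 dpl for 1380 and 247. The male change was called for 335 genes without male replicate 2 at 7 dpl, for 5 without female replicate 3 at 7 dpl, and for 2 to 4 without any other single library.

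Properties of the RNA moved with the groups as well. Genes called higher had a median exon length of 3915 bases and those called lower of 5754 bases, against 3987 bases over all genes, and their median GC contents were 50.8% and 48.5%, against 49.5%. Malat1, a long nuclear RNA, stood at 701 to 886 CPM in the males at 3 dpl, 499 to 718 CPM in the males at 7 dpl, 547 to 597 CPM in the females at 3 dpl and 726 to 1006 CPM in the females at 7 dpl. Reads of the mitochondrial chromosome were 4.09% to 7.48%, 4.01% to 16.6%, 4.08% to 12.6% and 4.87% to 9.91% in the same order. With the trend of each library with exon length removed, 2385 genes were called, and 11 of 24 immediate early genes were called higher (7.32% of all genes). The part of RNA quality and of the time of day in the interaction was not tested.

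Lesioned retinas without SCFA were fitted with the same model, over 12 control libraries of which 2 are females at 7 dpl. The 2 control libraries of the second run are both males at 3 dpl, so the run covariate takes up their level. The estimates thus rest on the first run, unlike those with SCFA, and the counts of the 2 fits are not like for like. The day by sex interaction was called for 23 of 17628 genes (0.130%), 15 with a higher value, and 1733 had an unadjusted p under 0.05 (9.83%). Cables1 was among the 23, at 1.31 ± 0.23 (edgeR adjusted p = 0.0720), with 8.38 to 11 CPM in the females at 3 dpl and 4.67 and 5.27 CPM at 7 dpl. Nr4a3 (0.20) and Dio2 (0.37) were not. No member of the immediate early, Müller glia, clock, heat shock, glucocorticoid or pigment epithelium lists was called by edgeR, while 4 of 25, 5 of 16, 5 of 19, 5 of 15, 4 of 13 and 0 of 15 had a higher value at an unadjusted p under 0.05. Their medians were 0.40, 0.35, 0.24, 0.36, 0.47 and -0.18. The 9.83% of all genes counts both directions, so these counts of higher values cannot be set against it.

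The difference between the interactions with and without SCFA was tested itself and was called for 9 of 18373 genes (0.0490%), with 2065 at an unadjusted p under 0.05 (11.2%). Dio2 was one of them, at a log2 value of 2.19 ± 0.44 (edgeR adjusted p = 0.0856), and Glp2r another, at -1.92 ± 0.40 (edgeR adjusted p = 0.0968). The others with an established name were Wnt16, a secreted Wnt ligand (-4.83), and Eif5b, a translation initiation factor (1.46). Cables1 and Nr4a3 did not pass this test (edgeR adjusted p = 0.349 and 0.243), so that their interaction was not shown to differ from that of the controls. Between 0 and 294 genes were called when single libraries were left out, with 0 without male replicate 1 or female replicate 3 at 3 dpl of the SCFA group, without male replicate 1 at 7 dpl of that group, or without male replicate 2 or female replicate 3 at 3 dpl of the controls, and 294 and 210 without SCFA male replicate 2 at 7 dpl and control male replicate 1 at 3 dpl. The immediate early list had a median of 0.03 and the pigment epithelium list of 1.59 in this contrast, and neither held a called gene by edgeR, with 7 of 25 and 5 of 15 at an unadjusted p under 0.05. Of the Müller glia list 1 of 16 was called, and the median was 0.45.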

How the data were processed

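Bulk RNA sequencing counts per gene were used as deposited. Per the authors' methods, RNA from pools of 2 retinas was sequenced with paired reads of 150 bases. The submitters' processing notes name the mouse build mm10 and DESeq2, and the aligner, the counting program, its strand setting and the annotation are not given in the sources used here. Without strand, reads of a gene and of an antisense or overlapping partner cannot be told apart. The deposited table holds raw counts of 54532 genes in 43 libraries. Of these identifiers, 54495 were found in GENCODE M21 (GRCm38), from which gene symbols, coordinates and exon lengths were taken.

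Groups came from the sample titles. Female SCFA replicate 2 at 3 dpl (lens transcripts) and female control replicate 2 at 7 dpl (Y chromosome transcripts) were left out. Genes were filtered with filterByExpr, scaled with TMM and tested with edgeR's quasi-likelihood test, two-sided, with Benjamini-Hochberg adjustment over all genes tested. A gene was called at an adjusted p under 0.1. The covariates were sex in each run and the run in fits over both runs. The SE of each log2 difference was derived from it and the F statistic, as the absolute difference over the root of F. The interaction with treatment and the day by sex interaction were further contrasts, and the 7 libraries of the second run were fitted on their own. Levels are CPM, computed from the counts with TMM-scaled library sizes. Tools were R 4.3.3, edgeR 4.0.16, DESeq2 1.42.0, limma 3.58.1, Python 3.11.15, pandas 2.3.3, numpy 2.4.6 and matplotlib 3.10.9.

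The leading genes are the 10 in each direction with the smallest p whose days did not overlap, among established symbols, and the 5 with the smallest p of each interaction, of which 1 is not reported here. The 5 leading genes with lower values of the day by sex interaction, the named members of the gene lists in that interaction and the genes apart in both runs were chosen after their values were seen. The members of the comparison and all gene lists were chosen with earlier results of these data known. Promoter windows are those of RefSeq on GRCm38.p6, 32851 windows of 27025 genes, and 12180 tested genes had one. Simulated counts for the first run, with 100 genes changed by 1 and 100 by 2 on the log2 scale, gave calls for 60% and 87% of these. For the interaction the shares were 56% and 81%. Among unchanged genes 17 and 24 were called. The simulated counts held no effect of sex or run and no deviation shared by the genes of a library, so these shares cannot be carried over to the real libraries. Alternatives were DESeq2, other scalings, filters, covariates and sets of libraries, and each library left out in turn.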

Additional observations from a re-analysis of the deposited data

Results flagged for a closer look

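Slc16a12 held 12.3 CPM in male SCFA replicate 3 at 7 dpl, far from the other 5 libraries of that day in the first run, at 3.02 to 6.17 CPM. Libraries this far apart arise by chance in about 1 in 20 groups, and 50 groups were tested.

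The change between 3 and 7 dpl differed between the sexes, by a test of the difference over all SCFA libraries, for the leading genes of that interaction. The log2 values, male change minus female change, were 2.11 for Cables1 (edgeR adjusted p = 0.000119), 3.73 for Nr4a3 (edgeR adjusted p = 0.000948), 2.61 for Dio2 (edgeR adjusted p = 0.000948), 1.63 for Rhou (edgeR adjusted p = 0.00127) and 1.15 for Bhlhe40 (edgeR adjusted p = 0.00271). In the other direction they were -1.42 for Ttll11 (edgeR adjusted p = 0.00569), -1.67 for Slc25a37 (edgeR adjusted p = 0.00585), -1.58 for Mzf1 (edgeR adjusted p = 0.00849), -1.56 for Glp2r (edgeR adjusted p = 0.00963) and -2.71 for Kif15 (edgeR adjusted p = 0.00987).

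The lens genes summed to 357507 CPM in female SCFA replicate 2 at 3 dpl, which entered none of the main comparisons, against 5.48 to 509 CPM in the control libraries.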

How the results depend on the processing

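All counts here are of genes called by edgeR unless DESeq2 is named, and the alternatives of the day by sex interaction other than DESeq2, the first run alone and single libraries left out, as well as the male and female changes with all their alternatives and those of the untreated libraries and of the interaction with treatment and sex, were chosen after seeing the data. In the first run, where 0 genes were called with the sexes pooled, the counts were 43 with DESeq2, 98 without a filter, 388 in females only, 4 with a robust fit, 26 in a single fit of all groups and 0 to 180 with 1 library left out, and they stayed at 0 under the other alternatives. In the second run they were 39 without a filter and 0 to 518 with 1 library left out. The interaction with treatment gave 0 to 4 with 1 library left out.

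For the day by sex interaction (2254) the first run alone gave 12 genes, a fit without the run 446 and single libraries left out 129 to 3835, while DESeq2 (2992), the second run alone (1832), female SCFA replicate 2 at 3 dpl added (2394), RLE scaling (2260) and removal of the trends with exon length (2385) and GC content (2826) stayed within 1.5 times. The male change (3) was called for 120 genes with DESeq2, 0 in the first run (971 at an unadjusted p under 0.05), 610 in the second, 9 with the GC trend removed and 2 to 335 with 1 library left out. The female change (894) was called for 1548 genes with DESeq2, 175 in the first run, 103 in the second, 60 without the run, 2415 with the added library, 538 with the length trend removed and 0 to 1380 with 1 library left out. The interaction of the untreated libraries (23) gave 132 with DESeq2 and 0 with female control replicate 2 at 7 dpl added (622 at an unadjusted p under 0.05). The interaction with treatment and sex (9) gave 112 with DESeq2, 21 with that library added and 0 to 294 with 1 library left out. Col4a2 turned from -0.69 to 0.41 with female SCFA replicate 2 at 3 dpl added. The causes were not tested.

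Deviations of libraries with the same replicate number correlated at -0.15 to 0.33, not over 0.1 in every pair, so the numbers were taken not to pair the libraries. With a replicate block the first run gave 0 genes (763 at an unadjusted p under 0.05), the interaction with treatment 0 (829), the day by sex interaction 911, the male change 0 (1978) and the female change 35. At this depth, levels under 0.142 to 0.198 CPM cannot be told from 0.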
